A study of Saccharomyces cerevisiae YPS1009 with 8 samples.

Results

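The enzymes of lower glycolysis, which turn glyceraldehyde 3-phosphate into pyruvate, were followed in ribosome footprints of the wild yeast strain YPS1009. They are encoded by 9 genes: TDH1 (YJL052W), TDH2 (YJR009C), TDH3 (YGR192C), PGK1 (YCR012W), GPM1 (YKL152C), ENO1 (YGR254W), ENO2 (YHR174W), CDC19 (YAL038W) and PYK2 (YOR347C). These genes were taken by name from the 6532 genes of the count tables, and the count of a gene was the sum of its reads over all counted positions. All 9 were present in the tables and all 9 passed edgeR's expression filter, along with 5785 other genes. The study asked how an additional chromosome affects translation as yeast cells stop dividing. It compared a Chr12 strain, which carries an additional copy of chromosome XII, with its euploid counterpart. Each strain was sampled at day 4, counted from the start of culturing, and in log phase after 3 generations. The 4 groups were therefore Chr12 at day 4, Chr12 in log phase, euploid at day 4 and euploid in log phase, with 2 replicate libraries each. Both strains are MATa haploids with the HO locus replaced by a drug marker, each was represented by 1 line, and all cultures were grown in rich YPD medium in shake flasks at 30 °C from an OD600 of 0.05. The labels give replicate numbers but do not say whether replicates came from separate colonies, so that p-values measure the spread between these libraries only. In what follows the values of a group are given as replicate 1, then replicate 2.

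Lower glycolysis yields the ATP of sugar fermentation. Glyceraldehyde 3-phosphate dehydrogenase (GAPDH) and phosphoglycerate kinase form the first high-energy phosphate. Phosphoglycerate mutase and enolase act next, and pyruvate kinase makes pyruvate. All steps but the last are reversible and also serve gluconeogenesis, by which yeast rebuilds sugar from ethanol after glucose is used up. Yeast keeps several isozymes for GAPDH, enolase and pyruvate kinase, and they are known for their different regulation: ENO2, TDH3 and CDC19 are the main forms in cells growing on glucose, ENO1 and TDH1 are linked to other carbon sources, stress and stationary phase, and PYK2 is repressed by glucose.

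The balance between isozymes shifted at day 4 in both strains, while the share of footprints on the whole set did not change detectably. ENO1 held on average 67.6% of enolase reads at day 4 and 22.1% in log phase, TDH1 held 33.05% of GAPDH reads at day 4 and 10.6% in log phase, and PYK2 held 1.04% of pyruvate kinase reads at day 4 and 0.140% in log phase, with no overlap between the 4 day 4 libraries and the 4 log phase libraries. Whole-gene shares of ENO1 and TDH1 include stretches where isozymes may share reads. In stretches chosen for a low log phase share, ENO1 held 2.38% to 5.94% in log phase and 67.6% to 84.5% at day 4. For TDH1 these shares were 2.34% to 5.28% and 19.9% to 44.9%. The low log phase shares follow from that choice, which was made after the data were seen. Among the single genes only ENO2, which fell, and PYK2, which rose, passed the test across all genes, both in Chr12. ENO2 also passed in the euploid when the replicate number was added to the fit, and the change between the phases did not differ detectably between the strains. No member passed the test between Chr12 and the euploid in either phase.

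The libraries held between 211302 and 6215498 reads. The shallowest was euploid day 4 replicate 1, and it stood apart: its footprint level for 8 of the members, all but PYK2, was from 2.97-fold to 8.88-fold below that of euploid day 4 replicate 2, whereas the replicates of the other groups differed by at most 1.66-fold for these genes. The calls and medians that rest on the euploid day 4 libraries are therefore given with and without each of them. The labels were borne out by other genes: all 7 stationary phase markers, such as SPG4 and CTT1, were higher at day 4 in both strains, and genes of chromosome XII exceeded other genes by a median of 0.81 at day 4 and 0.72 in log phase (log2, Chr12 over euploid). HO, deleted in both strains, had between 0 and 5 reads in a library. None of the members lies on chromosome XII. TDH1 and TDH2 are on chromosome X, TDH3 and ENO1 on VII, and PGK1, GPM1, ENO2, CDC19 and PYK2 on III, XI, VIII, I and XV. Levels below are TMM-scaled RPM, that is reads scaled to 1000000 per library, where TMM sets libraries against each other by the bulk of their genes, and no spike-in was used, so that a change in footprints per cell cannot be seen. A footprint count also cannot tell more mRNA from more ribosomes per mRNA.

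**Figure D1:**
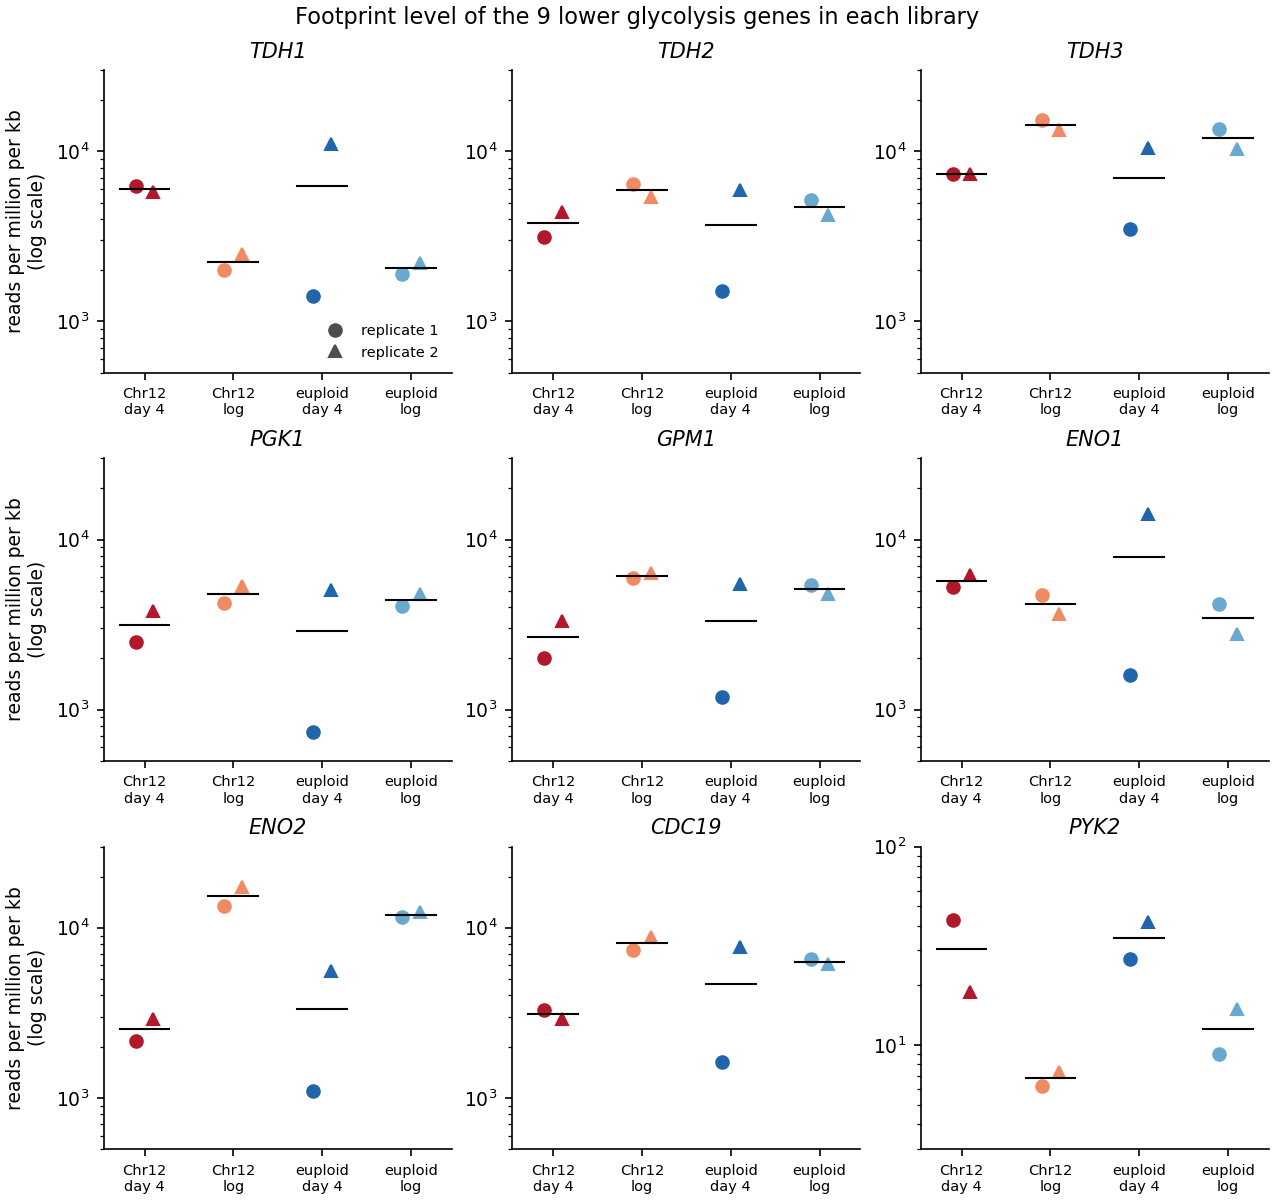
Footprint level of each member in each library, as TMM-scaled RPM (reads scaled to a common library size) per kb of counted positions on a log axis, with circles for replicate 1, triangles for replicate 2 and lines for group means. ENO2 lay lower at day 4 than in log phase in both strains and PYK2 lay higher, and euploid day 4 replicate 1 was the lowest library for every gene but PYK2.

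The first step is carried out by GAPDH, with TDH3 as its main isozyme in growing cells. TDH3 had 8358 and 8369 RPM in Chr12 at day 4, against 17394 and 15140 in Chr12 log phase, and 3970 and 11774 in the euploid at day 4, against 15288 and 11738 in euploid log phase. The Chr12 libraries did not overlap between the phases, and the euploid libraries did by a narrow margin. The log2 fold change of day 4 over log phase was -0.96 (SE 0.546) in Chr12 and -0.78 (SE 0.545) in the euploid (edgeR, adjusted p = 0.257 and 0.335). TDH2, an isozyme of intermediate abundance, had 3527 and 5008 RPM in Chr12 at day 4, against 7224 and 6105 in Chr12 log phase. In the euploid it had 1709 and 6671 at day 4 and 5853 and 4769 in log phase, so that only Chr12 separated the phases, with fold changes of -0.64 (SE 0.630) in Chr12 and -0.34 (SE 0.628) in the euploid. TDH1, the least abundant form in log phase, went the other way. It had 7031 and 6507 RPM in Chr12 at day 4, against 2262 and 2813 in Chr12 log phase. Euploid values were 1596 and 12484 at day 4 and 2138 and 2509 in log phase, with replicate 1 below and replicate 2 far above both log phase libraries. The fold changes of TDH1, 1.42 (SE 0.809) in Chr12 and 1.60 (SE 0.813) in the euploid, did not pass the test (edgeR, adjusted p = 0.259 and 0.190).

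Phosphoglycerate kinase and phosphoglycerate mutase each rest on a single main gene. PGK1, the kinase, had 3464 and 5239 RPM in Chr12 at day 4, against 5848 and 7335 in Chr12 log phase, and 1014 and 6998 in the euploid at day 4, against 5612 and 6635 in euploid log phase. Its fold changes were -0.60 (SE 0.778) and -0.61 (SE 0.778) in Chr12 and the euploid. PGK1 was the only member whose sign in Chr12 turned when libraries were scaled by their totals alone, to 0.05. Under that scaling the Chr12 values of TDH2 and TDH3 shrank to -0.008 and -0.30. GPM1, the mutase, had 1761 and 2927 RPM in Chr12 at day 4, against 5176 and 5557 in Chr12 log phase, and 1044 and 4796 in the euploid at day 4, against 4766 and 4202 in euploid log phase. Its fold change was -1.19 (SE 0.687) in Chr12 and -0.62 (SE 0.681) in the euploid, and for both genes the euploid phases overlapped (edgeR, adjusted p between 0.262 and 0.640). Open reading frames on the opposite strand of PGK1 (YCR013C) and GPM1 (YKL153W) held at most 13 and 11 reads in any library.

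Enolase showed the clearest contrast between isozymes. ENO2, the form of glucose-grown cells, had 3099 and 4199 RPM in Chr12 at day 4, against 19451 and 25108 in Chr12 log phase. ENO2 fell by 2.61 on the log2 scale (SE 0.723) and passed the test (edgeR, adjusted p = 0.0349). In the euploid ENO2 had 1585 and 7988 RPM at day 4 and 16694 and 17848 in log phase, also without overlap, and its fold change of -1.85 (SE 0.703) missed the threshold (edgeR, adjusted p = 0.0907). The study pairs its Chr12 and euploid libraries by replicate number, and with that number as a block ENO2 fell by 2.12 in the euploid (SE 0.586) and passed the test (edgeR, adjusted p = 0.0285), where 33.3% of all genes were called. ENO1, the form linked to growth without glucose, had 7619 and 8980 RPM in Chr12 at day 4, against 6781 and 5299 in Chr12 log phase. Its whole-gene levels thus lay above those of log phase by a small margin in Chr12, with a fold change of 0.46 (SE 0.838, edgeR, adjusted p = 0.751). The ENO1 count of log phase includes stretches where ENO1 and ENO2 held nearly equal counts, 13 to 16 of 43 windows, and some TDH1 windows had shares of 25% to 29%. These counts are part of the whole-gene levels, fold changes and shares of both genes, and their part in the values was not tested. In windows chosen for a low log phase share, ENO1 held 5.53% and 2.38% of enolase reads in Chr12 log phase. Over the whole gene it held 25.8% and 17.4% there. The lower share in the chosen windows follows from that choice, which was made after the data were seen. Euploid ENO1 values were 2299 and 20416 at day 4 and 6023 and 4028 in log phase, 1 library below and the other above, with a fold change of 1.18 (SE 0.847, edgeR, adjusted p = 0.349).

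Pyruvate kinase, the committed last step, is made from CDC19 in growing cells and to a small extent from PYK2, whose product works without the activator fructose 1,6-bisphosphate. CDC19 had 5384 and 4761 RPM in Chr12 at day 4, against 12076 and 14336 in Chr12 log phase, a fold change of -1.38 (SE 0.672, edgeR, adjusted p = 0.187). In the euploid it had 2641 and 12644 at day 4 and 10723 and 9948 in log phase, where the phases overlapped and the fold change was -0.43 (SE 0.661). PYK2 was by far the least abundant member, with 39 and 79 reads in Chr12 at day 4, 21 and 18 in Chr12 in log phase, 12 and 429 in the euploid at day 4, against 27 and 32 in euploid log phase. On the scaled level this came to 70.5 and 30.6 RPM in Chr12 at day 4, against 10.3 and 12.1 in Chr12 log phase, and to 45.1 and 69.2 in the euploid at day 4, against 14.9 and 25.1 in euploid log phase. PYK2 was thus higher at day 4 in every library of both strains, and it was the only member for which euploid day 4 replicate 1 lay above both log phase libraries. It rose by 2.13 (SE 0.563) in Chr12 (edgeR, adjusted p = 0.0291), and the value of 1.56 (SE 0.547) in the euploid missed the threshold (edgeR, adjusted p = 0.0706). The few PYK2 reads were mixed in reading frame. Without the outer 20 codons at either end, the expected frame held 78.9% and 45.5% in Chr12 at day 4, against 38.1% and 43.75% in Chr12 log phase. In the euploid it held 36.4% and 46.8% at day 4, against 59.3% and 38.7% in log phase. In euploid log phase replicate 2, 10 of 31 such reads lay on 1 codon.

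Across the set, edgeR called 2 of 9 members between day 4 and log phase in Chr12, 1 higher and 1 lower, where 22.9% of the 5794 genes tested were called (13.2% higher and 9.67% lower). The share of called members was therefore near that of all genes. The median log2 fold change of the members in Chr12 was -0.64, beside 0.25 for all genes tested. In the euploid 0 of 9 members were called in edgeR, where 27.2% of all genes were called (15.6% higher and 11.6% lower). At an unadjusted p under 0.05 there were 2 members and 2228 of 5794 genes. DESeq2 called 1 member (ENO2) and 1705 of 5794 genes. The median of the members was -0.43 in the euploid, beside 0.39 for all genes. In Chr12 the libraries of the 2 phases did not overlap for any member, with 3 members higher and 6 lower at day 4, against 36.1% and 28.4% of all genes that were higher and lower without overlap. Scaled by library totals alone, 3 were higher, 3 lower and 3 overlapped. On that scale 3000 of all 5794 genes were higher and 1024 lower without overlap. In the euploid 1 member was higher and 1 lower without overlap, against 33.1% and 26.6% of all genes.

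**Figure D2:**
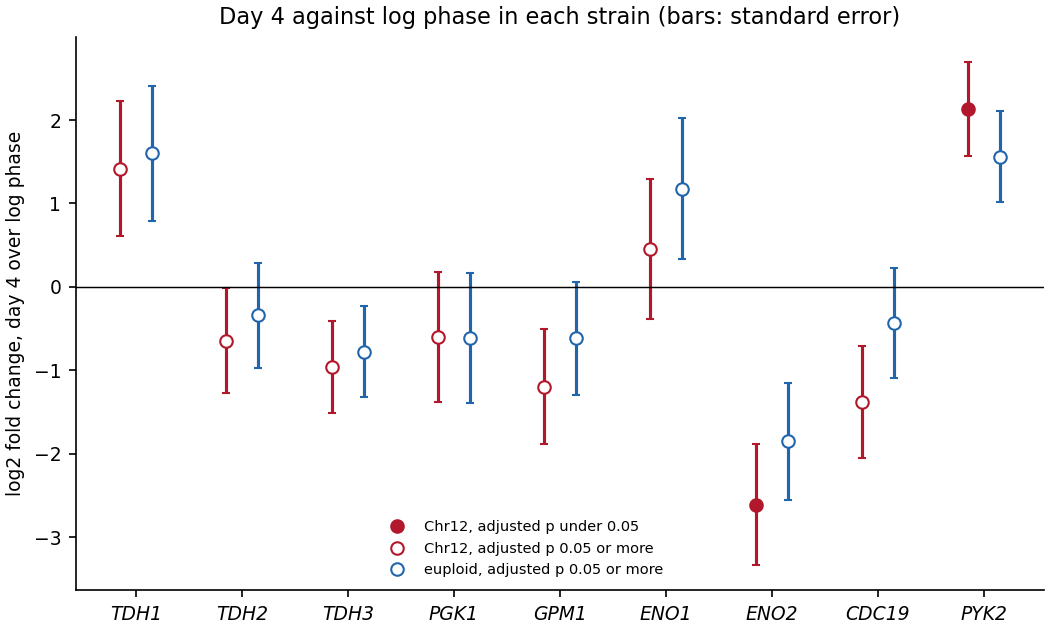
Log2 fold change of day 4 over log phase for each member in Chr12 (red) and in the euploid (blue), with bars for the standard error of the edgeR fit and filled points for an adjusted p under 0.05. ENO2 (-2.61) and PYK2 (2.13) in Chr12 are the filled points.

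The euploid count rested on which day 4 library was kept. Without euploid day 4 replicate 1, edgeR called 3 members, all higher, where 30.5% of all genes were called, 1026 of 5854 higher: TDH1 at 2.44, ENO1 at 2.04 and PYK2 at 1.82. ENO2 was then at -1.10 and TDH3 at -0.18. Without euploid day 4 replicate 2 it called 6 members, all lower, namely TDH2, TDH3, PGK1, GPM1, ENO2 and CDC19, where 24.5% of all genes were called, 826 of 5892 lower, and the members' median became -2.11. ENO2 was then at -3.79, TDH3 at -2.11 and PYK2 at 0.83. Leaving out either of these libraries also brought the Chr12 count to 4 members, TDH1 and PYK2 higher and ENO2 and CDC19 lower, where 30.8% of all genes were called without replicate 1 and 29.8% without replicate 2. The Chr12 calls had a narrow base too: both were lost when either Chr12 log phase library, Chr12 day 4 replicate 1 or euploid log phase replicate 2 was left out, and that of ENO2 alone was lost without Chr12 day 4 replicate 2 or euploid log phase replicate 1. The direction of ENO2 and PYK2 held in both strains under every library left out, with fold changes in Chr12 from -2.84 to -2.40 for ENO2 and from 1.46 to 2.65 for PYK2.

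Shares of reads among isozymes of 1 enzyme do not depend on the scaling between libraries, and they were compared over the 4 day 4 and the 4 log phase libraries of both strains. ENO1 made up 71.1% and 68.1% of enolase reads in Chr12 at day 4, against 25.8% and 17.4% in Chr12 log phase. In the euploid it made up 59.2% and 71.9% at day 4 and 26.5% and 18.4% in log phase. ENO1 was therefore the main enolase in all 4 day 4 libraries and ENO2 in all 4 log phase libraries. The mean share of ENO1 was 67.6% ± 5.82 at day 4 and 22.1% ± 4.79 in log phase (SD, n = 4 each; two-sided exact permutation test, p = 0.0286, adjusted p = 0.0476 over the 5 shares tested). This p is the smallest that 4 against 4 libraries can give. The test treats the libraries as exchangeable over strain and replicate number. In log phase same-numbered libraries had close ENO1 shares, 25.8% and 26.5% for replicate 1 and 17.4% and 18.4% for replicate 2. The 4 libraries of a phase may therefore not be independent, and the p-values of all 5 shares carry this limit. The shallowest library, euploid day 4 replicate 1, had 612 ENO1 reads among 1034 enolase reads, with a 95% Wilson interval from 56.2% to 62.1%, which lies far above all log phase values. Intervals cover counting error only.

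TDH1 made up 37.2% and 32.7% of GAPDH reads in Chr12 at day 4, against 8.41% and 11.7% in Chr12 log phase. In the euploid its share was 21.9% and 40.4% at day 4 and 9.18% and 13.2% in log phase. The mean was 33.05% ± 8.04 at day 4 and 10.6% ± 2.21 in log phase, again without overlap (SD, n = 4 each; two-sided exact permutation test, p = 0.0286, adjusted p = 0.0476). The gain stood against TDH3, whose share was 44.2% and 42.1% in Chr12 at day 4, against 64.7% and 62.9% in Chr12 log phase, and 54.6% and 38.1% in the euploid at day 4, against 65.7% and 61.7% in euploid log phase. TDH2 held a smaller and less variable part, with 18.6% and 25.2% in Chr12 at day 4, against 26.9% and 25.4% in Chr12 log phase, and 23.5% and 21.6% in the euploid at day 4 and 25.1% in both log phase libraries. Its mean of 22.2% ± 2.80 at day 4 was not separated by the test from the 25.6% ± 0.848 of log phase (SD, n = 4 each; two-sided exact permutation test, p = 0.0857, adjusted p = 0.107). Reads on TDH1 thus exceeded those on TDH2 in 3 of the 4 day 4 libraries, with ratios of 1.99 and 1.30 in Chr12 and 0.934 and 1.87 in the euploid, and in none of the log phase libraries, where the ratio was between 0.313 and 0.526.

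PYK2 made up 1.29% and 0.638% of pyruvate kinase reads in Chr12 at day 4, against 0.0854% and 0.0846% in Chr12 log phase. In the euploid the share was 1.68% and 0.544% at day 4 and 0.139% and 0.251% in log phase. The mean was 1.04% ± 0.541 at day 4 and 0.140% ± 0.0784 in log phase (SD, n = 4 each; two-sided exact permutation test, p = 0.0286, adjusted p = 0.0476). CDC19 remained the source of at least 98% of the reads in every library. The value of euploid day 4 replicate 1 rests on 12 PYK2 reads among 715, with a 95% Wilson interval from 0.963% to 2.91%, still above every log phase value. The 9 members together held 5.63% and 5.34% of library reads in Chr12 at day 4, against 6.59% and 6.11% in Chr12 log phase. In the euploid they held 2.004% and 8.36% at day 4 and 5.75% and 5.42% in log phase, so that the day 4 libraries lay on either side of log phase. The mean of 5.33% ± 2.60 at day 4 did not differ detectably from the 5.97% ± 0.504 of log phase (SD, n = 4 each; two-sided exact permutation test, p = 0.629, adjusted p = 0.629).

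**Figure D3:**
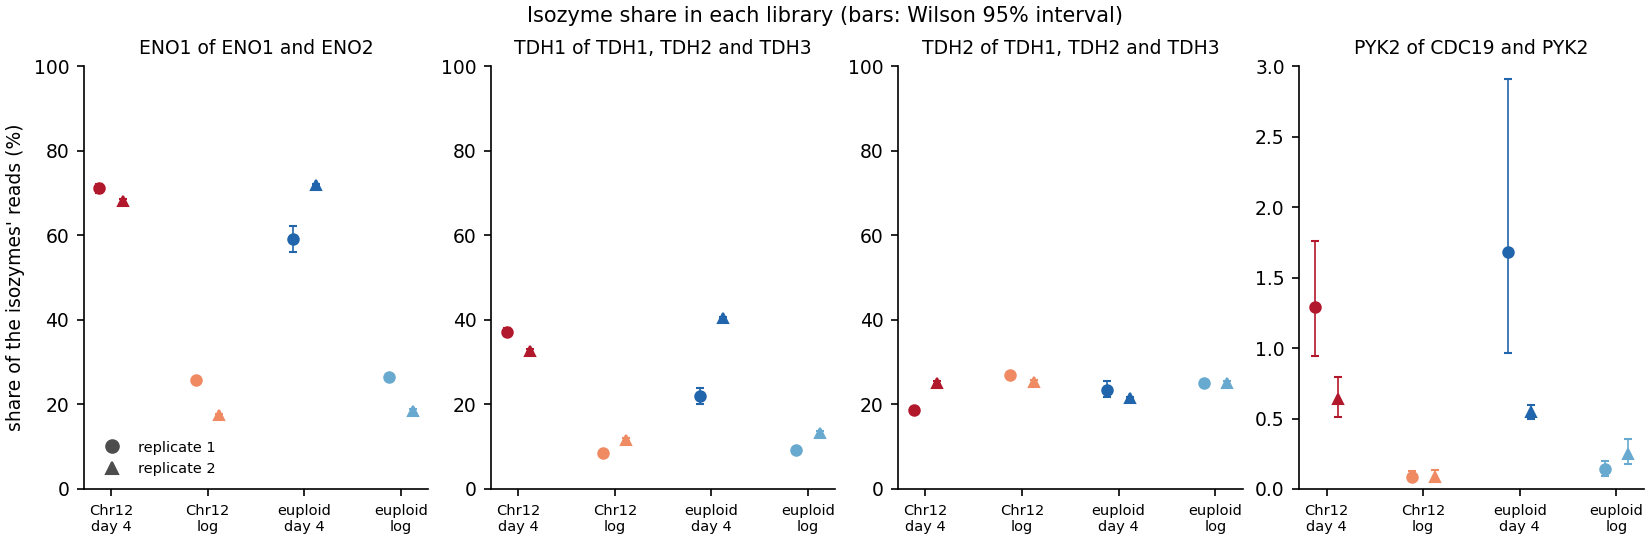
Share of ENO1, TDH1, TDH2 and PYK2 among the reads of their isozymes in each library, in percent with Wilson 95% intervals, circles for replicate 1 and triangles for replicate 2. For ENO1, TDH1 and PYK2 all 4 day 4 libraries lie above all 4 log phase libraries, and for TDH2 they overlap.

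Isozyme genes are alike in sequence, and how reads that match several of them were placed is not stated in the sources used here. The coding sequences of the isozymes were therefore cut into windows of 30 nucleotides, 43 for enolase and 33 for GAPDH, and the share was read in each. In log phase the share of ENO1 alternated between stretches close to an even split and stretches close to 0: from 13 to 16 of the 43 windows had a share of 40% to 60% and from 15 to 19 had at most 10%. In the ENO1 window from codon 191, for example, the share was 45.4% and 52.95% in Chr12 at day 4, against 51.4% and 47.1% in Chr12 log phase. In the ENO1 window from codon 121 it was 91.9% and 78.5% in Chr12 at day 4, against 0.48% and 0.27% in Chr12 log phase, and 83.8% and 85.8% in the euploid at day 4, against 0.76% and 0.57% in euploid log phase. No day 4 library had an ENO1 window at or under 10%, and from 17 to 30 windows lay over 60%, which none did in log phase. No sequence was used here, so that identity between isozymes in the evenly split windows was not tested.

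Windows that were low in log phase, at most 10% in both log phase libraries of 1 replicate number, were then measured in the libraries of the other number. This setting was chosen after the data were seen and is given as a description. In such windows (14 or 17 of 43) ENO1 held 84.2% and 79.04% of enolase reads in Chr12 at day 4, against 5.53% and 2.38% in Chr12 log phase, and 67.6% and 84.5% in the euploid at day 4, against 5.94% and 2.79% in euploid log phase. For TDH1 (23 or 25 of 33 windows) the shares of GAPDH reads were 36.5% and 32.7% in Chr12 at day 4, against 2.34% and 4.06% in Chr12 log phase, and 19.9% and 44.9% in the euploid at day 4, against 2.40% and 5.28% in euploid log phase. The low log phase shares there follow from how the windows were chosen, and the day 4 libraries were not used to choose them. For TDH2 against TDH3 only 3 windows met the rule, and from 13 to 15 of 33 windows were split between 40% and 60% in log phase.

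**Figure D4:**
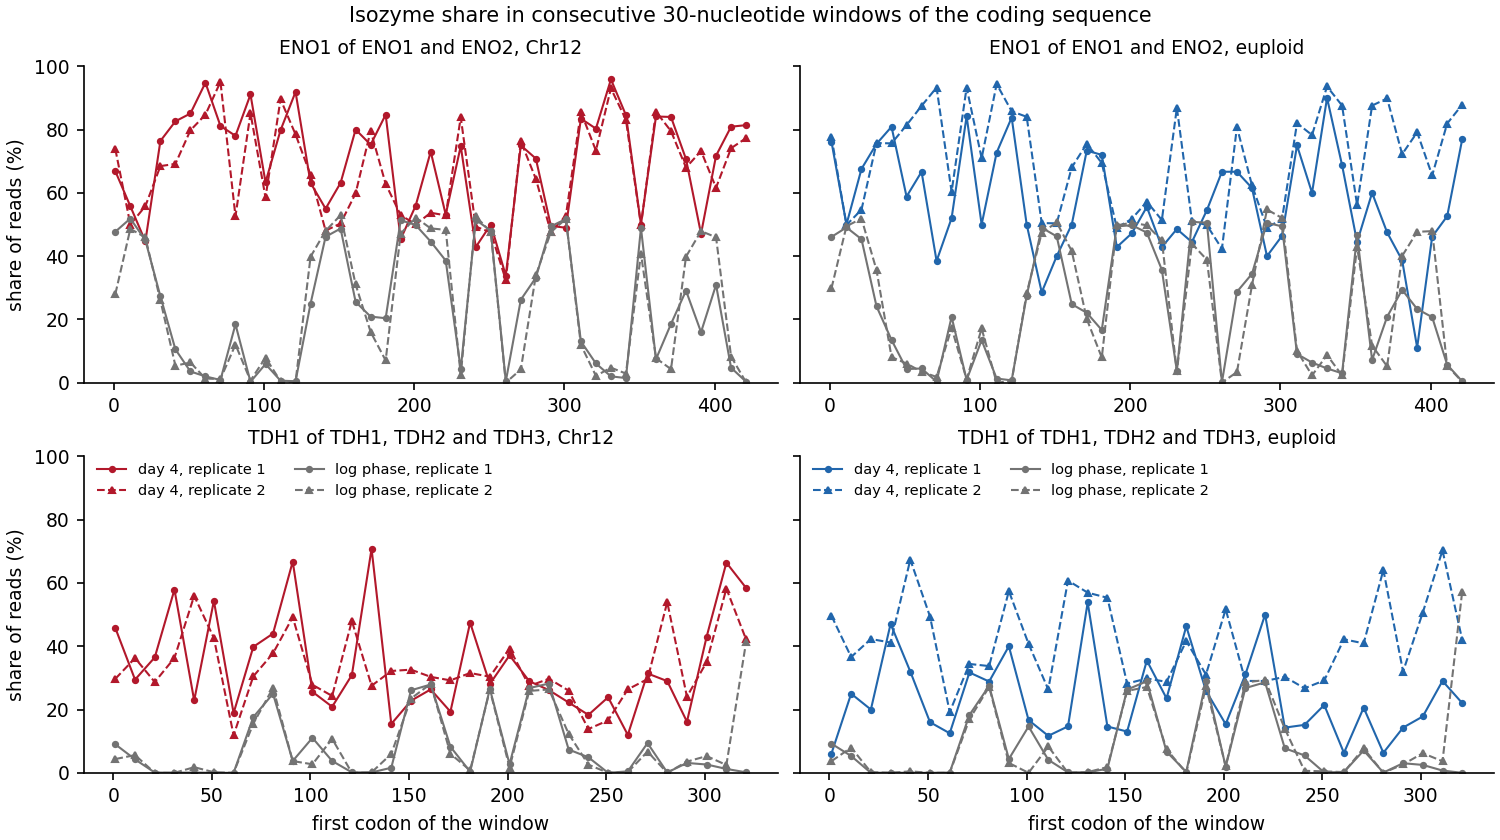
Share of ENO1 among enolase reads (top) and of TDH1 among GAPDH reads (bottom) in consecutive windows of 30 nucleotides, plotted by the first codon of the window, for Chr12 (left) and the euploid (right), with day 4 in colour, log phase in grey, solid lines for replicate 1 and dashed lines for replicate 2. In log phase ENO1 moves between about an even split and 0 along the gene, with 15 to 19 of 43 windows at or under 10%, while the day 4 lines have none at or under 10%.

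Set against each other per kb, the members changed places between the phases. In log phase ENO2 and TDH3 led in both strains: in Chr12 ENO2 had 13461 to 17375 RPM per kb and TDH3 13386 to 15379, ranges that overlapped, and CDC19 came next with 7390.4 to 8774. TDH1 was 8th and PYK2 9th. At day 4 in Chr12 TDH3 was first with 7390.1 and 7399.9, followed by TDH1 (6222 and 5759) and ENO1 (5272 and 6215), which overlapped each other. ENO2 was 8th with 2145 to 2906. TDH1 thereby moved to the 5th and 14th place among all 6532 genes in the Chr12 day 4 libraries, against the 103rd and 105th in Chr12 in log phase. In the euploid TDH1 held the 64th and 8th place at day 4, against the 121st and 103rd in log phase. In the euploid at day 4 all neighbours in the order overlapped except PYK2, the last. PYK2 had 42.7 and 18.5 RPM per kb in Chr12 at day 4, against 6.24 and 7.34 in Chr12 log phase.

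The additional chromosome was not accompanied by a detectable change in any member. At day 4 edgeR called 0 of 9 members between Chr12 and the euploid, where 0.069% of all genes were called. At an unadjusted p under 0.05 there were 0 members and 501 of 5794 genes. The day 4 libraries of the strains overlapped for all 9 members. For the log phase libraries edgeR called 0 of 9 members and 0 of 5794 genes (0%), with 0 members and 106 genes at an unadjusted p under 0.05. There TDH2, GPM1, ENO2 and CDC19 were higher in both Chr12 libraries than in both euploid libraries and PYK2 was lower, against 15.3% and 15.2% of all genes that were higher and lower without overlap. ENO2, for example, had 19451 and 25108 RPM in Chr12 and 16694 and 17848 in the euploid. PYK2 had 10.3 and 12.1 RPM in Chr12 and 14.9 and 25.1 in the euploid. DESeq2 called 0 members in either phase, beside 81 of 5794 genes at day 4 and 1 of 5794 in log phase. The change between the phases did not differ detectably between the strains for any member, with 0 of 9 and 0 of 5794 genes (0%) called in the interaction and 0 members and 245 genes at an unadjusted p under 0.05. The median of the members in the interaction was -0.30. It was -1.13 without euploid day 4 replicate 1 and 1.19 without euploid day 4 replicate 2. Such fits keep a single euploid day 4 library, so that only their effect sizes are given here. With standard errors of 0.535 to 0.838 at day 4, a difference between the strains of 1 on the log2 scale lies within 2 standard errors of 0 for every member. The median of the members at day 4 (log2, Chr12 over euploid) was -0.25, with no call. Without euploid day 4 replicate 1 it was -1.01, and without euploid day 4 replicate 2 it was 1.46. The stationary phase markers had a median of -2.23 and the growth markers one of 0.98 in the same comparison, with none called, and their part in it was not tested.

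Genes of the neighbouring pathways were counted in the same fits. Their counts stand beside 13.2% of all genes higher and 9.67% lower in Chr12, and 15.6% higher and 11.6% lower in the euploid. Of 8 upper glycolysis genes, 2 were higher and 1 lower at day 4 in each strain. HXK1, the hexokinase of cells without glucose, differed by 5.85 (SE 1.12) in Chr12 and 5.71 (SE 1.11) in the euploid (log2, day 4 over log phase), and HXK2, that of glucose-grown cells, by -3.57 and -3.76. All 4 values passed the test. Of 8 genes of gluconeogenesis and the glyoxylate cycle, 7 were higher in Chr12 and 6 in the euploid and none was lower. The malate synthase MLS1 stood highest, at 7.91 and 8.39, and the pyruvate carboxylase PYC2 lowest, at -1.46 and -1.03 without passing the test. Of 8 fermentation genes 2 were higher and 1 lower in each strain, with the minor pyruvate decarboxylase PDC6 at 5.05 and 6.37 and the main one, PDC1, at -1.80 and -1.42, which did not pass. Among 4 genes of the glycerol branch 2 were higher in Chr12, and 1 higher and 1 lower in the euploid, with GPD1 at 3.17 and 2.52, both called, and GPP1 at -1.16 and -1.68, the second called. Of 5 regulators of glycolytic genes 2 were higher in Chr12 and 3 in the euploid. TYE7, an activator of glycolytic genes, was higher by 3.52 and 3.55, and RAP1 differed by -0.51 and -0.52 without passing. Of 5 minor relatives of mutase and enolase 4 were in the tables. GPM2 was higher by 5.97 and 6.87, and GPM3 differed by -1.78 and -1.34 without passing. The counts of ERR1 and ERR2, relatives of enolase, were identical at every position in all 8 libraries and count as 1 measurement. ERR1, named here after its values were seen, had 21 and 7 reads in Chr12 at day 4, against 14 and 2 in Chr12 log phase, and 245 and 2604 in the euploid at day 4, against 6 and 4 in euploid log phase. It was called in the euploid only, and its difference between the strains at day 4 did not pass the test (edgeR, adjusted p = 0.313). None of these genes was called between the strains.

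The genes whose footprints moved most like the members over the 8 libraries were found by the root mean square distance of centred log2 levels, among 5785 other genes. Nearest to the mean of TDH3, PGK1, GPM1, ENO2 and CDC19 was TPI1, the triose phosphate isomerase one step upstream, at a distance of 0.185, followed by CDC50 (0.205), PYC2 (0.222), SHE2 (0.229) and APE3 (0.237). TDH2 lay at 0.363 from this mean, and ENO1, TDH1 and PYK2 at 0.938, 1.28 and 1.67. Nearest to TDH1 were BCK2, PEP8, MRX10, YGR026W and SDS23 (0.282 to 0.320), and nearest to ENO1 were MMS21, MUK1, GTR2, TPO5 and GRE3 (0.238 to 0.2995). TDH1 and ENO1 lay 0.472 apart, closer than either lay to any other member. These distances include both euploid day 4 libraries, which differed from 2.97-fold to 8.88-fold for 8 members. They also use whole-gene counts, and they were not computed without either library.

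Along the coding sequences, the reads of the 8 abundant members lay almost wholly between start and stop. At most 1.44% of the reads of a member lay before the start codon and at most 1.44% after the stop codon in any library. The expected reading frame held from 56.5% to 85.1% of gene-body reads, the part without the outer 20 codons at either end. In Chr12 the medians over the 8 members were 76.6% and 60.3% at day 4 and 69.97% and 80.2% in log phase. Polarity, which runs from -1 for reads at the start of the gene body to 1 for reads at its end, had medians between -0.04 and 0.04 in all libraries. The first 20 codons held 19.9% and 3.24% of CDC19 reads in Chr12 at day 4, against 5.94% and 2.09% in Chr12 log phase, and 13.7% and 6.46% in the euploid at day 4, against 6.12% and 1.91% in euploid log phase. For CDC19 each replicate 1 library thus had more reads near the start than the replicate 2 library of its group.

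The position of the highest codon was often shared by the strains at the same replicate number. In PGK1 it was codon 329 in both day 4 replicate 1 libraries, codon 74 in both day 4 replicate 2 libraries, codon 363 in both log phase replicate 1 libraries and codon 128 in both log phase replicate 2 libraries. In TDH1 it was codon 81 in log phase replicate 1 (26.5% of gene-body reads in Chr12 and 30.4% in the euploid) and codon 196 in log phase replicate 2 (24.6% in Chr12 and 28.7% in the euploid). TDH2 had its highest codon at the same positions in these libraries. The windows that hold these codons, from codons 81 and 191, had a TDH1 share of 25% to 29% in log phase, unlike the 23 to 25 of 33 windows at or under 10%. The highest TDH1 window reached 41.3% in Chr12 log phase replicate 2 and 57.3% in euploid log phase replicate 2. Codon profiles of the 8 abundant members, as log2 of reads plus 1 over 208 to 461 gene-body codons, were compared between libraries. Between the strains the median Pearson correlation was 0.524 and 0.851 at day 4 for replicates 1 and 2, and 0.940 and 0.909 in log phase. Between the replicates of 1 strain it was 0.307 in Chr12 and 0.303 in the euploid at day 4, and 0.631 and 0.626 in log phase. For each of the 8 genes the profiles were therefore more alike between strains of the same replicate number than between replicates of the same strain, in both phases. Codons are not independent replicates and the libraries differ in depth, so that no test was made.

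**Figure D5:**
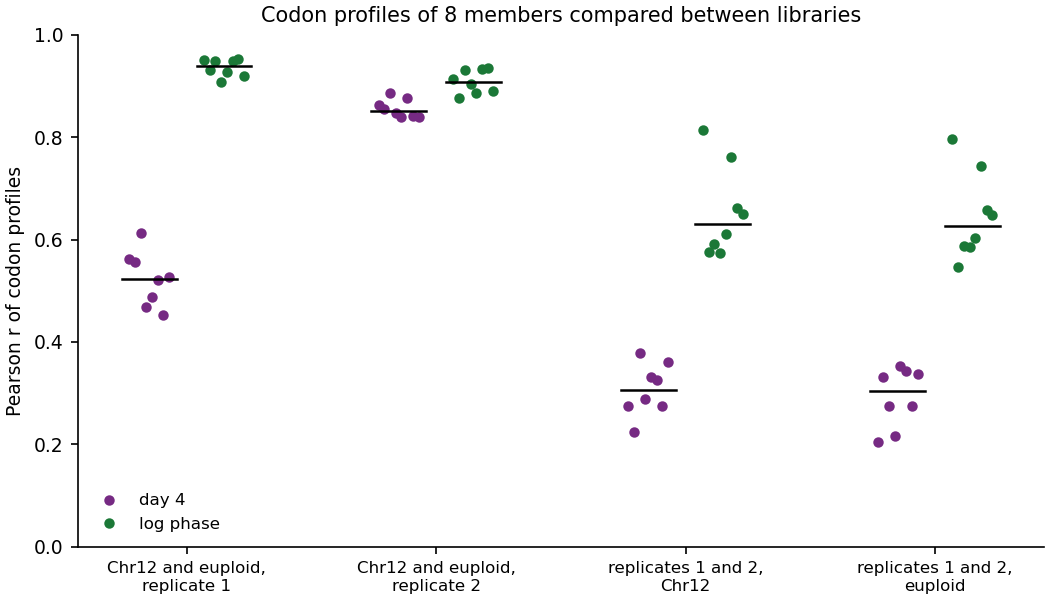
Pearson correlation of the codon profiles of 8 members (points; PYK2 left out for its few reads) between Chr12 and the euploid at the same replicate number and between the replicates of each strain, at day 4 (purple) and in log phase (green), with lines for medians. Correlations between strains at the same replicate number, with medians of 0.524 to 0.940, lie above those between replicates of 1 strain in the same phase, with medians of 0.303 to 0.631.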

How the data were processed

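Ribosome footprints of the 8 libraries were deposited by the authors as raw counts: per gene, the reads whose 5′ end lies at each position of the coding sequence and its flanks (72 nt upstream, 60 nt downstream). Per the study's methods the authors trimmed reads with CutAdapt, removed noncoding RNA and aligned to the YPS1009 genome with bowtie2. No removal of duplicate reads is described, and treatment of multiply matching reads is not given in the sources used here. Each replicate 1 library also has a second table of unstated origin, used as an alternative. Rows without a systematic name, at most 0.0222% of reads, were left out. Names came from the RefSeq gene table, and groups and replicate numbers from the sample titles.

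Gene counts were fitted with edgeR 4.0.16 under R 4.3.3 (quasi-likelihood, TMM, filterByExpr) as 4 group means over all 8 libraries, with Benjamini-Hochberg adjustment over the 5794 genes tested at an FDR of 0.05. DESeq2 1.42.0 was an alternative. The standard error is the size of the log2 fold change divided by the square root of F. The fits were tested on simulated counts. Shares were tested with two-sided exact permutation tests in Python 3.11.15 with scipy 1.17.1, with Wilson intervals at 95%. Between 2 and 2 libraries such a test cannot pass, so the strains were pooled, and the permutation kept neither strain nor replicate number. Study methods pair Chr12 and euploid libraries by replicate number, and deviations from the group means of same-numbered libraries correlated at 0.16 to 0.69 over the 6 pairs of groups. The fit had no block, so values with the replicate block stand beside a result where they change a call. The P site was set 12 nt into the read. Alternatives were counts of the gene body, RLE factors, library totals, a filter of 1 read, a replicate block, the second tables, counts without the highest codon of each gene and each library left out. Named genes were the members, the extremes of each pathway list by the summed fold change in the 2 strains, and the 5 genes nearest to each of 3 patterns. Members and lists were chosen with earlier results of these data known.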

Additional observations from a re-analysis of the deposited data

Results flagged for a closer look

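In log phase the TDH2 share of GAPDH reads was 26.9% in Chr12 replicate 1, apart from the other 3 log phase libraries, which lay between 25.1% and 25.4%. The gap to the nearest library was large relative to the range of the 4 libraries (Dixon's criterion at the 95% level), and of 10 such groups of 4 libraries examined chance alone flags about 1 in 20.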

How the results depend on the processing

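With all libraries kept, the count of members called in Chr12 between day 4 and log phase became 1 with library totals alone (PYK2) and 3 with the second tables (CDC19 gained, at -1.46). Over all genes these settings called 1615 of 5794 and 2066 of 5395, beside 1327 of 5794 in the main fit. In the euploid the count of members became 1 with library totals (PYK2), 1 with DESeq2 (ENO2), 2 with the second tables and 2 without the highest codon (ENO2 and PYK2 in both). Over all genes these settings called 1718 of 5794, 1705 of 5794, 2219 of 5395 and 1967 of 5597, beside 1575 of 5794 in the main fit. The fold change of PGK1 in Chr12 turned to 0.052 with library totals alone, and that of TDH2 shrank to -0.008. That scaling gave a median over all genes of 0.91 in place of 0.25 in Chr12 and 0.75 in place of 0.39 in the euploid. With the replicate block 1 euploid member was called (ENO2), and no other call of a member changed.

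When each library was left out in turn, the counts ran from 0 to 4 in Chr12 and from 0 to 6 in the euploid. Euploid fold changes ran from -0.89 to 2.44 for TDH1, from -1.48 to 2.04 for ENO1, from -1.98 to 0.34 for TDH2, from -2.94 to 0.21 for PGK1, from -2.45 to 0.11 for GPM1 and from -2.32 to 0.31 for CDC19, with both ends set by the 2 euploid day 4 libraries. Differences of day 4 minus log phase, in percentage points, ran from -1.64 to 0.478 for the share of the members, from 43.98 to 48.3 for ENO1, from 19.99 to 26.1 for TDH1 and from 0.685 to 1.06 for PYK2, where 3 against 4 libraries cannot give a p below 0.0571. The shares of ENO1, TDH1 and PYK2 kept their direction and side of the threshold under the gene body, second table and highest codon alternatives. Of 27 member values between strains or in the interaction, 8 changed sign under an alternative that kept all libraries, and 19 when 1 was left out. The planned count over windows of unique reference sequence was not run, since no genome was used here. With 2 libraries a group the common coefficient of biological variation was 0.551, and the fold changes of TDH1 and CDC19 in Chr12 passed the test when either euploid day 4 library was left out.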
